A study of Homo sapiens with 6 samples.

Results

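Integrins are the cell surface receptors with which a cell holds on to the surrounding matrix. Each receptor pairs one alpha subunit with one beta subunit, the pair sets which ligand is bound, and the cytoplasmic tail of the beta subunit connects to the actin or keratin cytoskeleton. In epithelial cells, ITGB1 pairs with many alpha subunits to bind collagens, laminins and fibronectin, ITGA6 also pairs with ITGB4 in hemidesmosomes, and ITGAV pairs with several beta subunits to bind ligands that carry an RGD motif. The transcripts of 10 subunits used by epithelial cells were followed in DU-145-DR/tet-MUC1shRNA cells, and all 10 were found among the 28008 genes of the count table. They were the alpha subunits ITGA2, ITGA3, ITGA5, ITGA6 and ITGAV and the beta subunits ITGB1, ITGB4, ITGB5, ITGB6 and ITGB8. The set was chosen by symbol with the response to MUC1-C silencing already known, ITGA2 being among the largest rises, so the differences of these 10 genes between the groups are given below as descriptions without a test.

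DU-145 is an established human prostate cancer line, and DU-145-DR is its derivative selected for resistance to docetaxel (DTX). The cells carry a doxycycline (DOX) inducible hairpin against MUC1, the gene of the transmembrane mucin from which the MUC1-C subunit is made. RNA-Seq was performed on 3 DOX-negative cultures, given 0.1% DMSO vehicle, and 3 DOX-positive cultures, given 500 ng/ml DOX for a week. The libraries hold 1 resistant line and 1 hairpin, and no DOX-treated cells without the hairpin were among them, so an effect of DOX itself cannot be told apart from silencing. In the sample labels the hairpin appears for DOX-positive cultures alone, and the study was relied on for its presence in the others.

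MUC1, the target of the hairpin, was counted 387, 484 and 396 times without DOX and 75, 74 and 66 times with it, which edgeR fitted as a log2 fold change of -2.52 (SE 0.146, adjusted p = 4.47e-11). Library totals ran from 15092691 to 23243713 counts, so that a count of 3 was worth 0.129 to 0.199 CPM, the count scaled to a common library size, and this counting floor does not cover other error. All 5 epithelial markers (EPCAM, CDH1, KRT8, KRT18 and KRT19) were above this floor in every library, whereas KLK3, which marks luminal prostate cells, was at 0 counts in all 6. The summed CPM of the epithelial markers moved with the groups, from between 758 and 838 in DOX-negative to between 1444 and 1517 in DOX-positive libraries, and all 5 were called higher. What part this had in the integrin values was not tested. Fewer cells of a kind and less RNA per cell cannot be told apart in bulk libraries. The summed CPM of 6 leukocyte markers stayed between 0.157 and 0.479, that of 5 endothelial markers between 0.471 and 1.13, that of 6 fibroblast markers between 4.27 and 6.27, and that of 5 platelet markers, ITGA2B among them, between 1.00 and 2.97.

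The genes lie on 7 chromosomes in the GENCODE annotation of GRCh38, the build in the submitters' processing notes. ITGA2 spans chr5:52989326-53094779 on the plus strand, and no exon of another gene overlaps its exons, which is also the case for ITGA3 (chr17:50055968-50090481, plus), ITGB4 (chr17:75721328-75757818, plus) and ITGB5 (chr3:124761948-124901418, minus). Exons of genes on the opposite strand overlap ITGA5 (chr12:54395261-54419460, minus), ITGA6 (chr2:172427354-172506282, plus), ITGAV (chr2:186590065-186680901, plus), ITGB1 (chr10:32900319-33005792, minus) and ITGB8 (chr7:20330702-20415754, plus). ITGB6 (chr2:160099666-160200313, minus) overlaps AC092153.1 on its own strand. The libraries were stranded, but whether the counting used strand was not given in the sources used here, so reads shared with these partners could not be set apart.

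The promoters of ITGA2, whose transcript differed most between the groups, of ITGB1, the common beta subunit, and of ITGAV, whose transcript overlapped between the groups, are shown as the 250 bases before the RefSeq transcription start (GRCh38.p14). Capitals mark GC boxes, the letters GGGCGG on either strand, which are the classical binding letters of the SP1 family. The windows are chr5:52989102-52989351 on the plus strand for ITGA2, chr10:32958231-32958480 on the minus strand for ITGB1, and chr2:186589806-186590055 on the plus strand for ITGAV, with 1 further start of ITGB1 and 1 of ITGAV not shown.
ITGA2: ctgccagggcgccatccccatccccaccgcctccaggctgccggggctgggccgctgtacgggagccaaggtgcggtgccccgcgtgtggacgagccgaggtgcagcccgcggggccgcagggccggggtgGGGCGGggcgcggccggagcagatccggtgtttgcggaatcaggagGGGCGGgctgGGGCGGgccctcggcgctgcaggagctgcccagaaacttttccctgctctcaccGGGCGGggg
ITGB1: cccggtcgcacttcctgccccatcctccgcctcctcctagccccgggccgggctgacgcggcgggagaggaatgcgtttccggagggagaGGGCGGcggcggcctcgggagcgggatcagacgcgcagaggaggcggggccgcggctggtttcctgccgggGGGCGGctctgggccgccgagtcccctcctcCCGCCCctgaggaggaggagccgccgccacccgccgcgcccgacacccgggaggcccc
ITGAV: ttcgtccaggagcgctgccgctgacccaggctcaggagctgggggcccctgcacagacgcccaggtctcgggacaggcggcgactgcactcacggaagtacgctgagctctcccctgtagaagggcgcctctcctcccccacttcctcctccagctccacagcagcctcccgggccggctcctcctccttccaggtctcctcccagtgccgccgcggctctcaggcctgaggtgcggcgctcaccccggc
The ITGA2 window held 4 GC boxes, beginning 119, 73, 63 and 9 bases before the start, and 76.4% of its bases were G or C. The ITGB1 window held 3, beginning 160, 89 and 58 bases before the start, at 78.4% G or C. The ITGAV window held none, at 70.8% G or C. The RefSeq and GENCODE starts differ for ITGA2 and ITGB1. In GENCODE, the last 26 bases of the ITGA2 window are exon, its box at 9 bases among them. The ITGB1 window lies inside the GENCODE span of ITGB1. Among all 35116 promoter windows of this length, 42.6% held a GC box. RefSeq entries matched 8 of the 10 genes, with 13 starts in all, and 7 of the 13 windows, from 6 genes, held a GC box. The 6 genes were ITGA2, ITGA6, ITGB1 and ITGB5, called higher, and ITGA5 and ITGB8, not called. The ITGA5 window held 1 GC box and the ITGB8 window 2. The AP-1 letters TGANTCA, present in 6.57% of all windows, were in none of the 13. A match is a description of letters, not of a bound site.

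ITGA2, the collagen-binding alpha subunit, was the gene of the set that differed most. Its level was 166, 164 and 152 CPM in the DOX-negative libraries and 771, 810.2 and 808 CPM in the DOX-positive libraries. The groups were far apart, and each held together within a narrow range. The means were 161 ± 7.59 CPM and 797 ± 22.1 CPM (SD, n = 3 per group), a 4.96-fold difference, with a fitted log2 fold change of 2.31 (SE 0.0641). By this value ITGA2 stood at place 14 of the 14292 genes tested and at place 1 of the 6099 genes with a mean log2 CPM of at least 5. Ordered by CPM, it moved from place 1480 in DOX-negative to place 115 in DOX-positive cells.

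**Figure D1:**
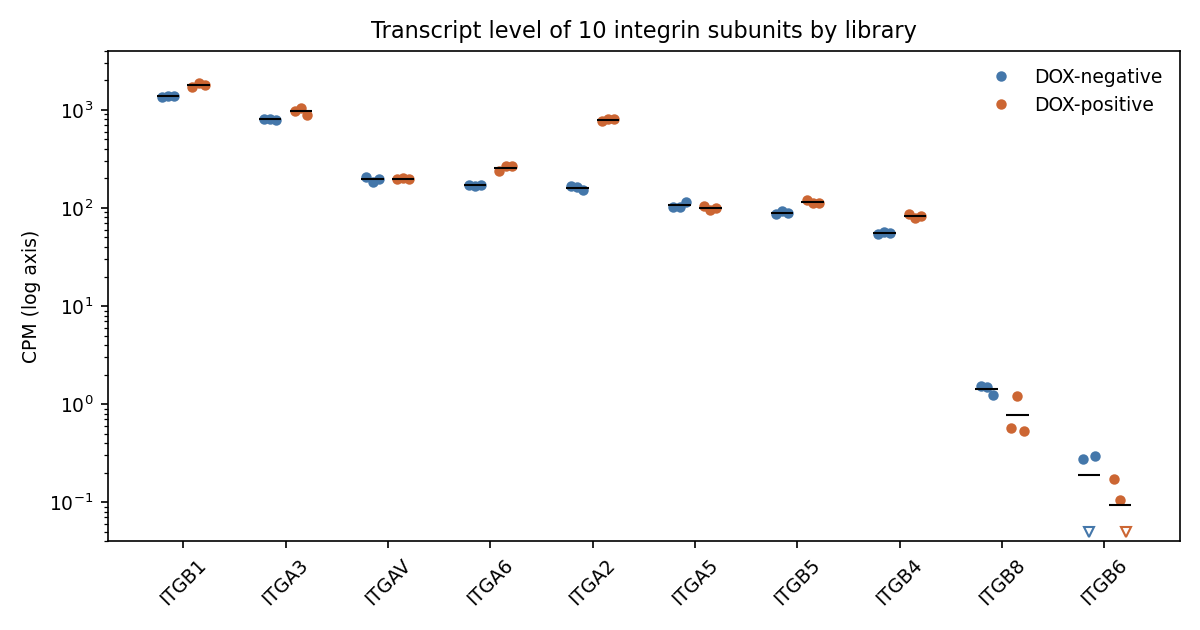
Level of each of the 10 integrin subunits in every library, in CPM on a log axis. Blue points are DOX-negative and orange points DOX-positive libraries, black lines are group means, and open triangles at the lower edge are libraries with 0 counts. The DOX-positive libraries of ITGA2 lie at 771 CPM or more and the DOX-negative ones at 166 CPM or less, whereas ITGA5 and ITGAV overlap between the groups.

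ITGA3 and ITGA6, the laminin-binding alpha subunits, were both higher in DOX-positive cells, by less than ITGA2. ITGA3 was at 809, 814 and 793 CPM in DOX-negative and 966, 1038 and 890.3 CPM in DOX-positive libraries. The groups did not overlap, although the lowest DOX-positive library was close to the highest DOX-negative one, and the log2 fold change was 0.26 (SE 0.0652). ITGA6 was at 173, 166 and 170.3 CPM against 237, 269 and 266 CPM. Every DOX-positive library of ITGA6 was above every DOX-negative one, with a log2 fold change of 0.60 (SE 0.0645).

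ITGA5, the alpha subunit of the main fibronectin receptor, did not separate the groups. It was at 102, 103 and 115 CPM in DOX-negative and 105, 94.9 and 99.7 CPM in DOX-positive libraries, with a log2 fold change of -0.095 (SE 0.0714). ITGAV, the alpha subunit of the vitronectin receptors, was at 206, 182 and 199 CPM against 196, 204 and 197 CPM. Its groups overlapped throughout, and its log2 fold change was 0.028 (SE 0.0640).

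ITGB1, which partners most of these alpha subunits, was the most abundant subunit in both groups. It was at 1357, 1378 and 1372 CPM in DOX-negative and 1723, 1894 and 1779 CPM in DOX-positive libraries, a log2 fold change of 0.39 (SE 0.0629) with no overlap. ITGB4, the beta subunit of hemidesmosomes, was at 54.0, 56.6 and 55.9 CPM against 86.7, 79.4 and 83.4 CPM. All DOX-positive libraries of ITGB4 were higher, and its log2 fold change of 0.58 (SE 0.0725) was close to the 0.60 of its only alpha partner ITGA6. ITGB5, a partner of ITGAV, was at 86.4, 92.3 and 88.3 CPM against 120.0, 113 and 111 CPM, again without overlap and with a log2 fold change of 0.37 (SE 0.0675).

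ITGB6 and ITGB8, which pair with ITGAV in receptors that activate latent TGF-beta, were barely present. ITGB8 had 28, 29 and 25 counts in DOX-negative and 13, 23 and 8 counts in DOX-positive libraries. Its DOX-positive libraries were all lower, at 0.566, 1.20 and 0.538 CPM against 1.54, 1.48 and 1.24 CPM, and its log2 fold change of -0.87 had a wide SE of 0.380. Without DOX-positive replicate 2, the log2 fold change was -1.35. ITGB6 had 5, 0 and 6 counts against 4, 2 and 0 counts. It lay near the floor of 3 counts, was removed by the filter on low counts and was not tested, and no difference was detectable at this depth.

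Of the 10 subunits, 9 were tested, 6 were called higher at an edgeR adjusted p under 0.05 (ITGA2, ITGA3, ITGA6, ITGB1, ITGB4 and ITGB5), and none were called lower, by edgeR or by DESeq2. At an unadjusted p under 0.05, 7 of the 9 passed, and the share of all genes at that threshold is not given here. At the adjusted threshold, 26.7% of all 14292 genes tested were called, with 13% higher and 13.7% lower. The DOX-positive libraries lay wholly above the DOX-negative ones for 6 of the 10 and wholly below for 1 (ITGB8), where 19.5% and 20.2% of all genes tested did so. Since the set was selected on this contrast, nothing is read from these counts. The median log2 fold change of the 9 was 0.37, against -0.0034 over all genes tested. Together the 10 transcripts took between 0.293% and 0.304% of a library's counts in DOX-negative and between 0.415% and 0.445% in DOX-positive cells.

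These directions depend on the scaling in 4 genes: in the TPM values (length-scaled transcript shares) as deposited, ITGA3, ITGAV, ITGB1 and ITGB5 had log2 differences of -0.14, -0.35, -0.001 and -0.029 with a pseudocount of 1. On that scale 5 short noncoding RNAs took between 34.4% and 64.4% of a library, and the median of all genes moved to -0.32. The split of calls among all genes was then 30 higher and 413 lower, against 1861 and 1955 in the counts. Relative to that median, ITGA3 was at 0.19, ITGB1 at 0.32, ITGB5 at 0.29 and ITGAV at -0.033, and ITGA2 at 2.20. The TPM values below were rescaled within each library after leaving out the 5 noncoding RNAs.

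**Figure D2:**
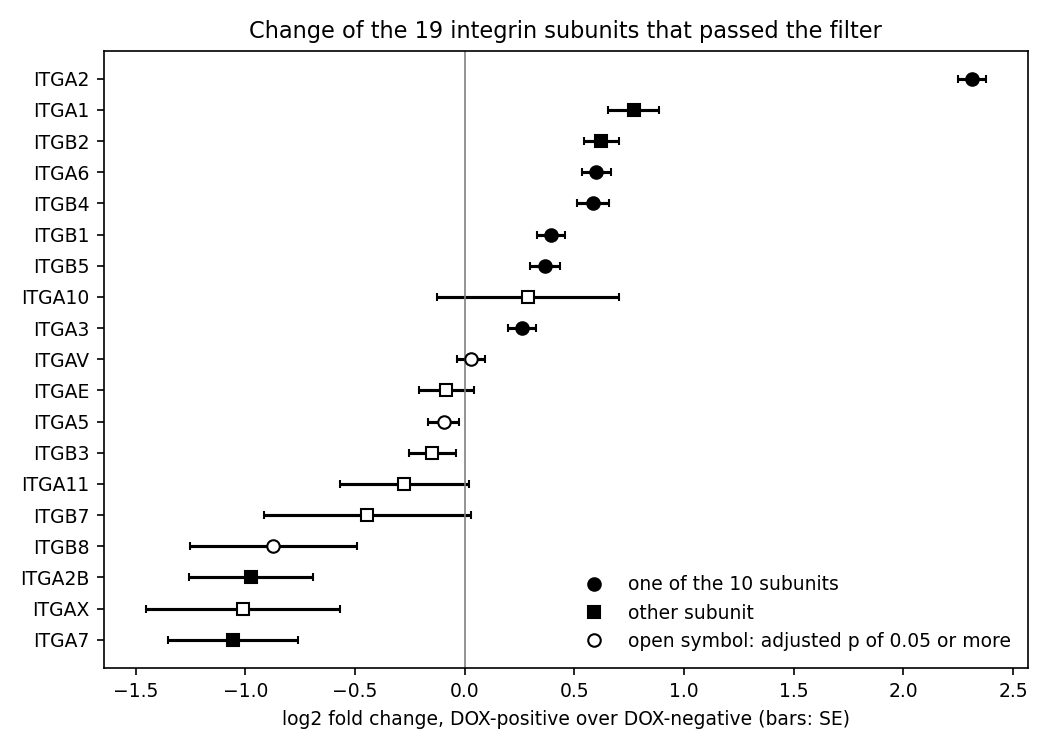
Fitted log2 fold change, DOX-positive over DOX-negative, of the 19 integrin subunits that passed the filter on low counts, with bars for the SE. Circles are subunits of the set, squares are other subunits, and open symbols have an adjusted p of 0.05 or more. ITGA2 stands at 2.31 and the next, ITGA1, at 0.77, and ITGA3, ITGAV, ITGB1 and ITGB5 are below 0 on the TPM scale as deposited.

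The order of the levels was taken from rescaled TPM, which divides by transcript length and so allows genes to be compared. ITGB1 came first at 926 ± 25.0 TPM in DOX-negative cells and ITGA3 second at 436 ± 16.9 TPM (SD, n = 3). ITGA6 (75.3 TPM), ITGAV (72.6 TPM), ITGA5 (69.2 TPM), ITGA2 (54.2 ± 3.84 TPM) and ITGB5 (53.0 TPM) followed close together. Among these, ITGA6 overlapped ITGAV, ITGAV overlapped ITGA5, and ITGA2 overlapped ITGB5, so these neighbours did not differ beyond their spread. Without DOX-negative replicate 1, ITGA5 came before ITGAV and ITGB5 before ITGA2. ITGB4 was at 24.2 TPM, ITGB8 at 0.432 TPM and ITGB6 at 0.111 TPM.

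In DOX-positive cells the order began with ITGB1 at 1197 ± 70.8 TPM and ITGA3 at 514 ± 40.0 TPM, and ITGA2, in place 6 without DOX, came to place 3 at a mean of 264 TPM (range 252 to 271). It was followed by ITGA6 (112 TPM), ITGAV (72.8 TPM), ITGB5 (67.0 TPM) and ITGA5 (63.7 TPM), of which ITGB5 and ITGA5 overlapped. ITGB4 (35.6 TPM), ITGB8 (0.229 TPM) and ITGB6 (0.053 TPM) kept the last places.

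The balance between subunits was followed as ratios of TPM within a library, which do not depend on how libraries are scaled to each other. ITGB1 has 12 alpha partners. The summed TPM of these partners was exceeded by ITGB1 in every library, by a ratio of 1.27, 1.30 and 1.30 in DOX-negative and 1.11, 1.15 and 1.17 in DOX-positive cells. The ratio was lower in all DOX-positive libraries. Over all integrin genes, the ratio of alpha to beta transcripts was 0.694 ± 0.00938 in DOX-negative and 0.770 ± 0.0157 in DOX-positive cells (SD, n = 3). ITGA2, chosen for its rise, is in the alpha sum of both ratios. Neither ratio was computed without it, so they do not show a shift shared by the alpha subunits.

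Within this pool of alpha partners, ITGA2 held 7.71%, 7.71% and 7.16% of the TPM in DOX-negative and 24.8%, 24.6% and 26.6% in DOX-positive libraries. The share of ITGA3 was 60.6% ± 0.693 and 49.2% ± 1.91 (SD, n = 3), so ITGA3 stayed the largest partner while its share was lower in all DOX-positive libraries, although its own level was higher in the counts and lower in the TPM as deposited. The shares of ITGA5 (9.62% and 6.12%) and ITGAV (10.1% and 6.98%) were lower as well, without overlap. The share of ITGA6 was 10.5% and 10.8%, with overlapping groups. Shares of a common pool sum to a constant, so a larger ITGA2 share lowers the others whatever their own levels. In the counts, the log2 fold changes of ITGA5, ITGAV and ITGA6 were -0.095, 0.028 and 0.60. ITGA2 amounted to 0.0585 of ITGB1 in DOX-negative and 0.221 in DOX-positive cells, and to 0.124 and 0.516 of ITGA3.

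**Figure D3:**
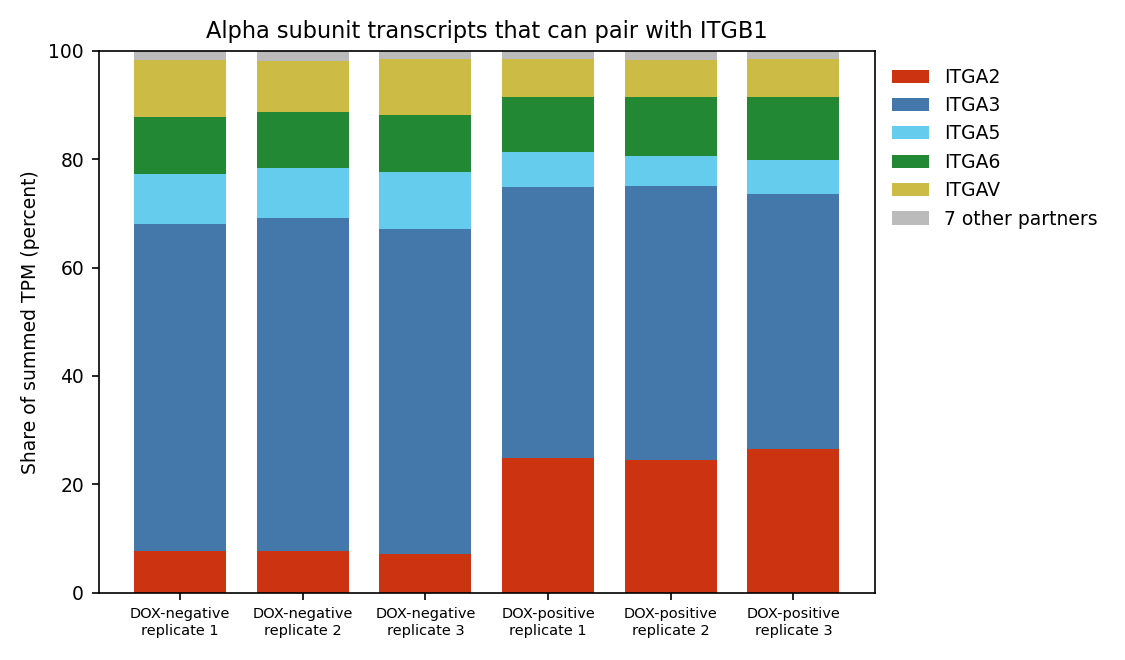
Share of each alpha subunit in the summed TPM of the 12 alpha partners of ITGB1, in percent, with 1 bar per library. The ITGA2 share lies between 7.16% and 7.71% in the DOX-negative and between 24.6% and 26.6% in the DOX-positive libraries, and the 7 partners outside the set share the narrow band at the top.

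The ratio of ITGA6 to ITGB4, the hemidesmosome pair, was 3.26, 2.99 and 3.11 in DOX-negative and 2.79, 3.45 and 3.25 in DOX-positive libraries, with overlapping groups. In the ITGAV family, ITGB5 amounted to 0.672, 0.813 and 0.711 of ITGAV in DOX-negative and 0.978, 0.885 and 0.904 in DOX-positive libraries, which did not overlap. ITGB5 held 77.7% ± 2.17 of the transcripts of ITGB3, ITGB5, ITGB6 and ITGB8 in DOX-negative and 83.4% ± 1.48 in DOX-positive cells, and ITGB3 held 21.5% ± 2.17 and 16.2% ± 1.40 (SD, n = 3). ITGB8 held 0.632% and 0.285%, so nearly all beta transcripts that pair with ITGAV outside ITGB1 came from ITGB5 and ITGB3. These are transcript ratios, and surface heterodimers were not measured.

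The 3 genes whose profile over the 6 libraries was most like that of ITGA2, by Euclidean distance of centred log2 CPM among 6098 genes with a mean log2 CPM of at least 5, were LOX (distance 0.374), SCEL (0.770) and ZFP36 (0.782). LOX encodes lysyl oxidase, which crosslinks collagen and elastin, and was at 12.2 ± 1.20 CPM in untreated and 55.1 ± 5.82 CPM in DOX-treated cultures (SD, n = 3). SCEL encodes sciellin, of the cornified envelope, with a log2 fold change of 1.71, and ZFP36 encodes an RNA-binding protein that destabilises AU-rich transcripts, with a log2 fold change of 1.69. All 3 were chosen for this likeness, which is mainly the difference between the groups.

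Of the 16 integrin subunits outside the set, 10 were tested, 2 rose and 2 fell. ITGA1, the other collagen-binding partner of ITGB1 that epithelial cells use, rose from 15.3 ± 0.854 to 26.0 ± 4.22 CPM (SD, n = 3), with a fitted log2 difference of 0.77 (SE 0.116, edgeR adjusted p = 3.33e-05). ITGA1 shares exon positions with PELO on the same strand, so part of its reads could belong to PELO. The ratio of ITGA2 to ITGA1 was 6.22 ± 0.312 in DOX-negative and 18.4 ± 2.72 in DOX-positive cells. ITGB2, best known as the beta subunit of leukocyte integrins, rose from 43.2 ± 2.99 to 66.4 ± 3.01 CPM (log2 fold change 0.62, SE 0.0797, edgeR adjusted p = 4.57e-06). Its leukocyte alpha partners were nearly absent, ITGAL having at most 1 count, ITGAD at most 1, ITGAM at most 8 and ITGAX at most 32 counts in any library.

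ITGA7, a laminin-binding partner of ITGB1 in muscle, fell by 1.06 in log2 units (SE 0.297, edgeR adjusted p = 0.0111), a call lost without DOX-negative replicate 2 (adjusted p = 0.130). ITGA2B, the alpha subunit of the platelet fibrinogen receptor, fell by 0.97 (SE 0.284, edgeR adjusted p = 0.0138), lost without DOX-positive replicate 1 (adjusted p = 0.0971). Both were low, at 2.97 and 2.84 CPM in DOX-negative cells. ITGB3, ITGAE, ITGA10, ITGA11, ITGAX and ITGB7 did not pass the test, with log2 fold changes between -1.01 and 0.29. ITGA4 had 0 counts in every library, and ITGA8, ITGA9, ITGAD, ITGAL and ITGAM were removed by the filter on low counts.

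Ligands of these receptors moved in both directions. Of 7 collagen chains tested, 1 rose and none fell, with a median log2 fold change of -0.047. The 1 was COL4A2, a basement membrane collagen, at 0.28 (SE 0.0936, edgeR adjusted p = 0.0324), a call lost when any of DOX-negative replicates 1 and 3 or DOX-positive replicates 1 and 3 was left out (adjusted p up to 0.209). Of 10 laminin chains tested, 3 rose and 3 fell, with a median of -0.072. LAMB3, a chain of epithelial basement membranes, rose from 241 ± 16.1 to 335 ± 22.2 CPM (SD, n = 3; log2 fold change 0.47, edgeR adjusted p = 1.77e-05). LAMA2, the chain of muscle laminin, fell by 0.60 (edgeR adjusted p = 0.00329) and LAMB1 fell by 0.39 (edgeR adjusted p = 0.00452).

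Of 13 tested ligands of the fibronectin and vitronectin receptors, 3 rose and 3 fell, with a median of -0.21. CCN1, listed under its older symbol CYR61, a matricellular ligand of ITGAV and ITGA6 receptors, rose from 391 ± 18.0 to 636 ± 28.4 CPM (SD, n = 3; log2 fold change 0.70, edgeR adjusted p = 2.68e-08). MFGE8, an RGD protein of milk fat globules, rose by 0.39 on the log2 scale (edgeR adjusted p = 4.16e-04). EDIL3, a related RGD protein, fell by 0.29 (edgeR adjusted p = 0.00519). THBS1, thrombospondin, fell by 0.19 (edgeR adjusted p = 0.0450), with overlapping groups and an adjusted p of 0.0502 by DESeq2. The THBS1 call was lost when any library other than DOX-positive replicate 2 was left out (edgeR adjusted p from 0.0503 to 0.207).

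**Figure D4:**
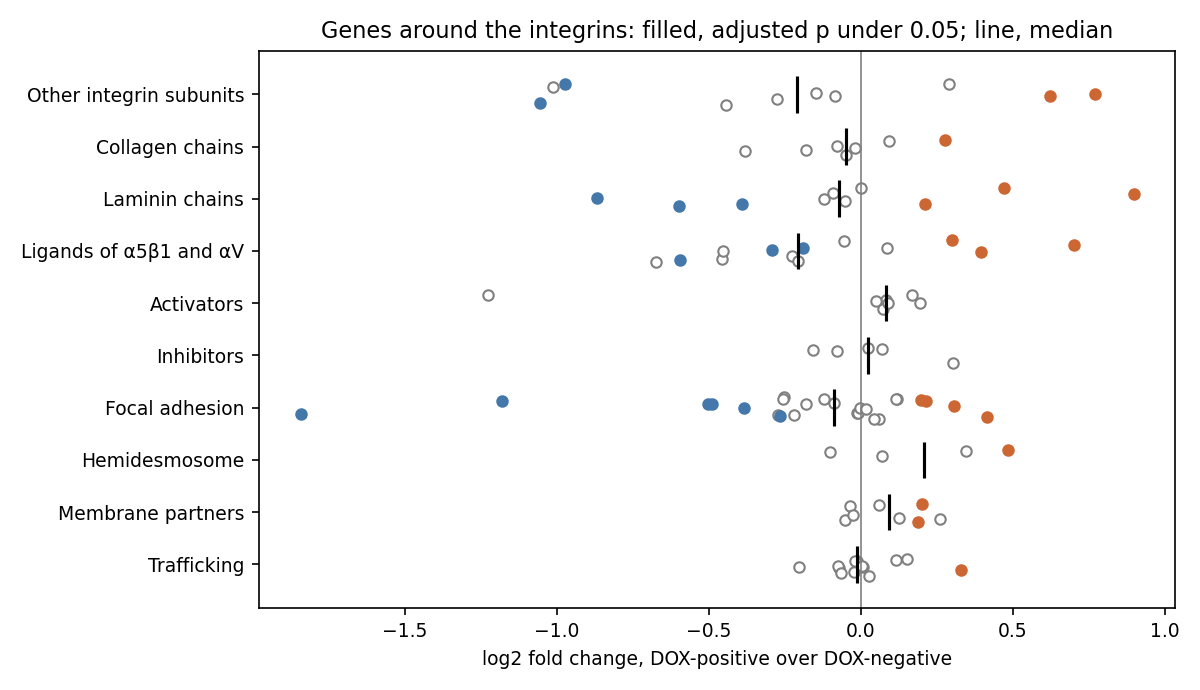
Fitted log2 fold change, DOX-positive over DOX-negative, of the tested genes in 10 lists around the integrins. Each point is a gene, filled points have an adjusted p under 0.05 (orange higher, blue lower), open points do not, and the black line is the median of the list. No list lies wholly to 1 side of 0, and the medians run from -0.21 to 0.21.

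The lists of proteins that switch integrins on and off are short and held no call, where 26.7% of all genes tested were called. None of 7 tested activators (talins, kindlins and RAP1 proteins) passed the edgeR test after adjustment or was called by DESeq2, and 2 had an unadjusted p under 0.05, FERMT3 and RAP1A. The talin TLN1 was at 577 ± 43.2 and 611 ± 31.0 CPM, and the kindlin FERMT2 was at 138 ± 4.41 and 145 ± 5.85 CPM (SD, n = 3). None of 5 inhibitors passed either, by edgeR after adjustment or DESeq2, and 1 had an unadjusted p under 0.05, SHARPIN, with a log2 fold change of 0.30 (SE 0.120). The unadjusted counts have no share of all genes beside them, so nothing is read from them. The medians of these lists were 0.083 and 0.024.

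Of 25 focal adhesion genes, which link integrins to actin and signaling, 4 rose and 6 fell, with a median of -0.088. TNS3, a tensin that binds the tails of beta subunits, fell from 85.0 ± 2.40 to 37.5 ± 5.63 CPM (SD, n = 3; log2 fold change -1.18, edgeR adjusted p = 2.54e-09). TNS2, another tensin, fell by 0.50 on the log2 scale (edgeR adjusted p = 0.00486). The actin-linked adaptor PARVA rose by 0.41 (edgeR adjusted p = 0.00191) and the paxillin-binding GIT1 by 0.31 (edgeR adjusted p = 0.0160), the latter lost without DOX-negative replicate 1 or 3 or DOX-positive replicate 1 (adjusted p up to 0.107).

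Of 4 hemidesmosome genes, PLEC alone rose, from 444 ± 50.6 to 622 ± 30.7 CPM (SD, n = 3; log2 fold change 0.49, edgeR adjusted p = 3.23e-05). Plectin links ITGB4 to keratin. COL17A1, DST and ERBIN did not pass, at log2 fold changes of 0.35, -0.10 and 0.070. Of 8 tested membrane partners, CD151, the tetraspanin of the laminin-binding integrins, rose by 0.20 (edgeR adjusted p = 0.0329) and CD63 by 0.19 (edgeR adjusted p = 0.0498). The CD151 call was lost without DOX-negative replicate 1 or 2 or DOX-positive replicate 1 (adjusted p up to 0.171), and the CD63 call without DOX-negative replicate 1 or 3 or DOX-positive replicate 1 or 3 (up to 0.243). Of 13 tested trafficking genes, RAB21, a small GTPase that binds the tails of alpha subunits in endocytosis, rose by 0.33 (SE 0.0656, edgeR adjusted p = 6.65e-04).

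Over the 10 lists together, 102 of 118 genes were tested, 17 rose and 14 fell. The 31 called were 30.4% of those tested, near the 26.7% of all genes. The median log2 fold change of the 102 tested was -0.021 against -0.0034 for all genes.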

How the data were processed

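RNA was isolated by the authors from triplicate cultures, and TruSeq Stranded mRNA libraries were sequenced. Gene counts, as whole numbers, were deposited by the authors for 28008 genes, and TPM values were deposited for 25546 genes. STAR, DESeq2 and GRCh38 are named in the submitters' processing notes, while versions, annotation, counting step and strand setting were not given in the sources used here. Groups were taken from the titles. The column headers of the counts and TPM values write TR where the titles write DR. They were matched to the titles by DOX state and replicate number. Counts were filtered with filterByExpr, scaled by TMM and tested with edgeR 4.0.16 (quasi-likelihood test, R 4.3.3), with Benjamini-Hochberg adjustment over 14292 genes and a threshold of 0.05. CPM uses TMM-scaled totals. The procedure was tested on simulated data. Subunit ratios and level orders used TPM within a library.

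The members and gene lists were chosen with earlier results of these data known. In each list, up to 2 called genes per direction with the largest change and a mean log2 CPM of at least 3 were named, with all integrins, MUC1 and the 3 genes most like ITGA2, except for items not reported here. Alternatives were DESeq2 1.42.0, RLE factors, total counts, other filters, a replicate block, thinned counts, limma 3.58.1 on log2(TPM + 1) and log2(TPM + 0.1), rescaled TPM and leaving out each replicate. Promoters came from RefSeq (GRCh38.p14) and coordinates from GENCODE (GRCh38).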

Additional observations from a re-analysis of the deposited data

How the results depend on the processing

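With the deposited TPM in limma, log2(TPM + 1) and log2(TPM + 0.1) gave 443 and 408 genes called, 1 subunit of the set called (ITGA2, higher) and 4 and 3 genes called in the pathway lists, 0 of them higher and 4 and 3 lower. In these tables the following changed sign: ITGA3 (-0.14 and -0.14), ITGAV (-0.35 and -0.36), ITGB1 (-0.0012 and -0.0011), ITGB5 (-0.029 and -0.028), ITGA10 (-0.032 and -0.097), COL4A2 (-0.10 and -0.11), GIT1 (-0.081 and -0.082), CD151 (-0.19 and -0.19), CD63 (-0.20 and -0.20), RAB21 (-0.063 and -0.064) and, with a pseudocount of 1, MFGE8 (-0.00099). ITGAV was also at -0.0069 with total counts and between -0.021 (without DOX-negative replicate 2) and 0.066 when 1 library was left out. The pathway lists held 17 higher calls in the counts, 11 with total counts, 11 with the replicate block and 9 with rescaled TPM. Leaving out 1 library gave between 2784 and 3645 genes called, 6 to 7 subunits of the set called, 6 of them higher and 0 to 1 lower (ITGB8, without DOX-positive replicate 2), and 21 to 31 pathway genes, 10 to 16 higher and 11 to 15 lower. The log2 change of the ratio of ITGB1 to its alpha partners was -0.17 from TPM and -0.29 from CPM, which weights long transcripts more. In the order of levels, 4 places changed without DOX-negative replicate 1 and 0 without any other library. With the replicate number as a block, 3158 genes were called, 3136 of them among the 3816, and the calls of COL4A2, THBS1, CD151 and CD63 were lost. After each gene's group mean was subtracted from log2(CPM + 1), same-numbered libraries of the groups correlated at -0.070, -0.14 and -0.037. With 3 libraries per group, these values cannot settle whether the numbers pair the samples. The remaining causes were not tested, and low counts limit ITGB6 and ITGB8.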

Other observations

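The genes around ITGA2 on chromosome 5 did not share the size of its difference. Among the 6 other tested genes within 1000000 bases, ITGA1, 30115 bases before ITGA2, and MOCS2, which encodes a molybdopterin synthase and ends 899 bases after ITGA2 on the opposite strand, were called higher by edgeR. MOCS2 was at 48.9 ± 2.58 CPM in untreated and 62.0 ± 3.59 CPM in DOX-treated cultures (SD, n = 3), a log2 fold change of 0.34 (SE 0.0786, adjusted p = 0.00263). PELO, a ribosome rescue factor within the span of ITGA1, was at 59.0 ± 2.46 and 58.9 ± 4.38 CPM, and NDUFS4, a subunit of respiratory complex I, was at 26.7 ± 2.53 and 27.3 ± 2.18 CPM. ARL15 had a log2 fold change of -0.18 (edgeR adjusted p = 0.182), and the low FST, which encodes follistatin, one of 1.18 (SE 0.446, edgeR adjusted p = 0.0548). These genes were looked at after the value of ITGA2 was known.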
